A study of Mus musculus with 7 samples.

Results

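The translation factors examined here are the genes of the eukaryotic initiation factors (eIF), the elongation factors (eEF) and the kinases of eIF2, chosen as the gene symbols of the deposited count table that begin with Eif1 to Eif6 or with Eef1 or Eef2. The choice gave 62 genes of the 24015 in the table. It held 51 initiation factors with their binding proteins, 8 elongation factors with the eEF2 kinase, and 3 eIF2 kinases. The libraries were made in bulk from polyadenylated RNA of haematopoietic stem cells (HSCs) of C57BL/6 mice, sorted from bone marrow by flow cytometry as LSK CD150+ CD48- cells. LSK stands for cells without lineage markers that carry Sca-1 and c-Kit. There were 3 libraries from old mice and 4 from young mice, and no genotype or treatment was given for either group. Ages are not stated, nor is it said that the libraries came from separate mice, so p-values measure only the spread between these libraries, which may be technical.

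Translation begins when eIF2 brings the initiator tRNA, bound with GTP, to the small ribosomal subunit. eIF3, eIF1 and eIF1A keep that subunit open for scanning, and the eIF4 factors bind the mRNA cap and unwind the leader. eIF2B recharges eIF2 with GTP, and the eIF2 kinases stop that step under stress by phosphorylating the alpha subunit of eIF2. After the subunits join, eEF1A delivers each aminoacyl-tRNA and eEF2 moves the ribosome along the message. HSCs are known for a low rate of protein synthesis compared with more mature blood cells, and much of the control of these factors is by phosphorylation or binding, which RNA levels do not show.

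Read totals were 27369677 to 32401925 in the old and 22203806 to 27146186 in the young libraries. A count of 0 allowed up to 0.0929 to 0.137 CPM (counts relative to the library total after correction by the TMM factor, a composition correction), the worth of 3 counts, which covers counting error only. On the first principal component young 1 stood apart, with 27.7% of the variance, and on the second young 2, with 21.5%. The HSC markers Procr, Slamf1, Ly6a and Kit were detected in every library, while Fgd5 ranged from 0 to 40.3 CPM in young HSCs. The 9 HSC markers summed to 1499 to 1922 CPM in old and 687.7 to 1170.0 CPM in young HSCs. Of these 9, 6 had a positive and 3 a negative log2 fold change. Procr alone passed the threshold, with a log2 fold change of 2.74 and an edgeR adjusted p of 0.00643. It was at 290 to 384 CPM in old and 40.2 to 66.1 CPM in young HSCs. The 10 markers of cycling cells summed to 351 to 779.5 CPM in old and 1798 to 2588 CPM in young HSCs, all 10 with a negative log2 fold change and none past the threshold. The multipotent progenitor markers Cd34, Cd48 and Flt3 summed to 85.2 to 135 CPM in old and 261 to 406.5 CPM in young HSCs, without overlap. Of these, Cd34 was at 85.2 to 135 CPM in old and 234 to 398 CPM in young HSCs, Cd48 at 0 in every old library and 1.87 to 24.5 CPM in young HSCs, and none passed the threshold. Markers of other cells were mixed. Ms4a1 and Ebf1 of B cells, Cd3e and Klrd1 of T and natural killer cells, Hba-a1 and Hbb-b1 of erythroid cells and Lepr of stroma were at 0 in all 7 libraries. From the same lists Cd79b was at 73.4 to 191 CPM in old and 122 to 185 CPM in young HSCs, and Nkg7 at 21.3 to 105 CPM in old and 65.4 to 382 CPM in young HSCs. The mean of Epor was 24.6 CPM in old against 51.0 CPM in young HSCs, that of Klf1 8.30 CPM in old against 31.6 CPM in young, and that of Pecam1 28.0 CPM in old against 26.4 CPM in young. The myeloid gene Lyz2 was present in all libraries, at 878 to 1410.0 CPM in old and 692 to 1270.0 CPM in young HSCs. Other genes of the neutrophil and monocyte list were low. Mpo was at 0 in every old library, with a mean of 8.12 CPM in young HSCs. The mean of Elane was 3.11 CPM in old against 1.75 CPM in young. That of S100a8 was 0.237 CPM in old against 1.31 CPM in young, and that of S100a9 0.333 against 0.247 CPM. The 5 megakaryocyte markers summed to 136 to 345.8 CPM in old and 240.1 to 533.4 CPM in young HSCs. Of these 5, 1 had a positive and 4 a negative log2 fold change, and none passed the threshold. The mean of Pf4 was 77.7 CPM in old against 140 CPM in young, and that of Itga2b 7.19 CPM in old against 47.8 CPM in young.

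No translation factor passed the threshold between old and young HSCs, an adjusted p under 0.05 in edgeR's quasi-likelihood test over all 11506 tested genes. The test covered 57 of the 62 genes, 47 initiation factors, 7 elongation factors and the 3 kinases. Over all tested genes 29 passed, or 0.252%. At an unadjusted p under 0.05 there were 4 translation factors of 57, or 7.02%, against 9.12% of all tested genes. Eif4a2 was on the higher side, and Eif4g1, Eif3b and Eif4h on the lower side. DESeq2, a second count test, called 1 of the 57, Eif4a2, against 3.75% of all tested genes. The remaining 5 genes had no count in any library, and they were Eif2s3y, Eif3j1, Eif3j2, Eif4e1b and Eef1a2.

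Fold changes of the family lay on both sides of 0. There were 29 positive and 28 negative values, with a median log2 fold change of old over young of 0.01, and over all tested genes the median was -0.03 with 48.5% positive. With library size alone as the scaling, the median of all tested genes was -0.12 and that of the family -0.085, with 26 of 57 positive. An absolute log2 fold change under 1 was found for 53 of 57 translation factors, or 93.0%, and for 71.3% of all tested genes. A mean of at least 50 CPM was reached by 47 of the 57, but by only 4508 genes of the table, where 11506 were tested. The 93.0% and 71.3% thus compare genes of unlike level. The family was also well measured, since 52 of the 57 had a count in every library, while 27.0% of all tested genes lacked a count in at least 1. For 24 of the 57 genes the 95% confidence interval lay within 1 log2 unit of 0, so a change beyond 2-fold was outside the interval for these and inside it for the other 33.

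In 8 translation factors of 57 (14.0%) the groups did not overlap, against 12.7% of all tested genes. Every old library was above every young one for Eif2d, Eif3d, Eif4a2, Eif4e3 and Eef1g, 5 genes or 8.77%, against 7.55% of all tested genes. Every old library was below every young one for Eif4g1, Eif5a and Eif6, 3 genes or 5.26%, against 5.18%. These shares are close to those of the table as a whole.

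**Figure D1:**
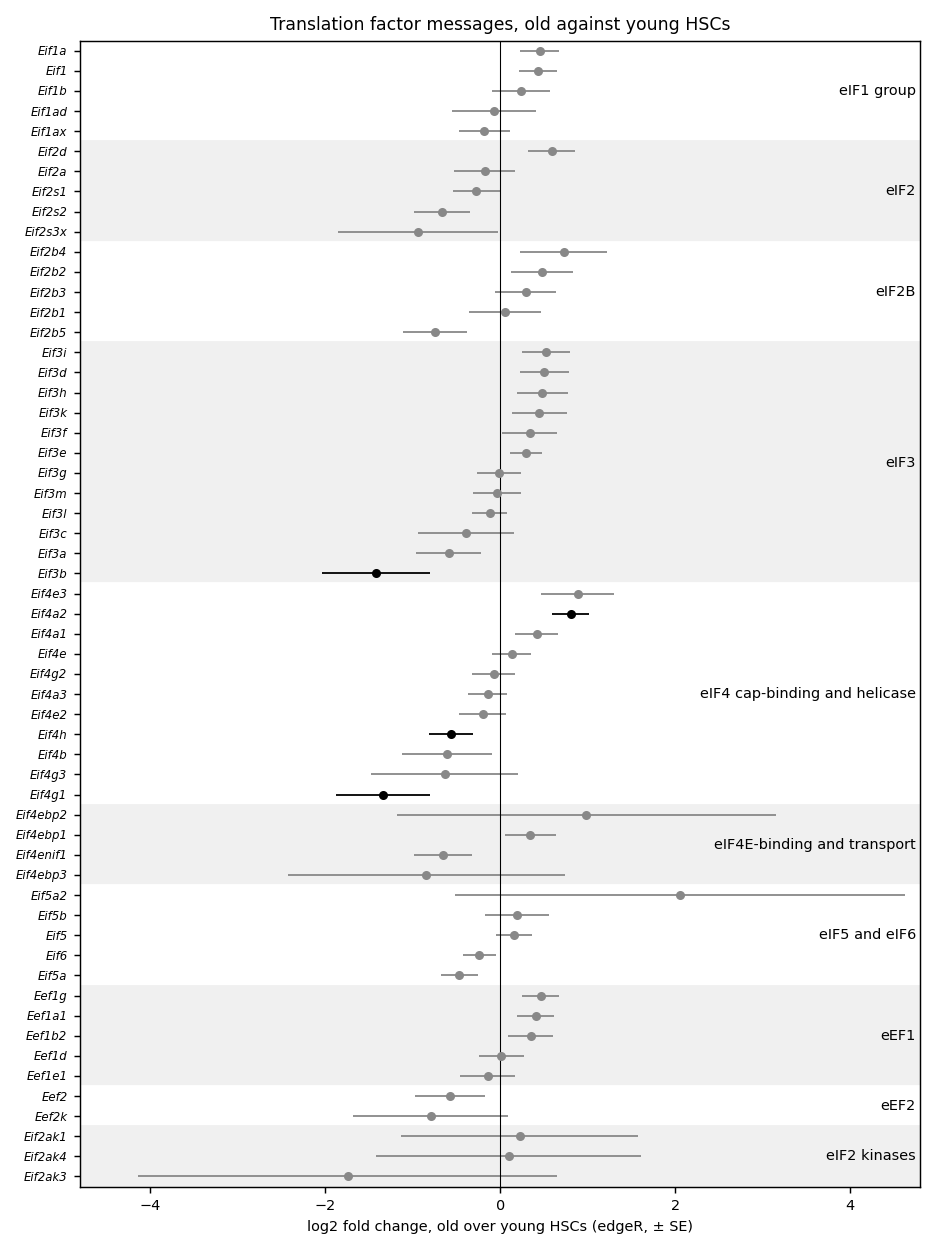
Log2 fold change of old over young HSCs for the 57 tested translation factors, ordered by role, with horizontal lines for ± 1 SE from edgeR's quasi-likelihood fit. Black points mark an unadjusted p under 0.05 and grey points the rest. Of the black points, Eif4a2 lies to the right of 0 at 0.81, and Eif4g1, Eif3b and Eif4h lie to the left.

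The family took an overlapping share of the counts in both groups. Its genes summed to 17600 to 19750 CPM in old and 17560 to 20850 CPM in young HSCs on the scale corrected by TMM factors. As a share of the raw counts, without that correction, they took 1.86%, 1.76% and 1.87% in old and 1.93%, 1.99%, 1.91% and 1.86% in young HSCs, a mean of 1.83% ± 0.0622 in old and 1.92% ± 0.0533 in young (SD, n = 3 and 4). The order of the group means thus depended on the scaling, and the groups overlapped on both scales. Much of that sum came from a few genes. On the scale of CPM per kilobase of transcript, which allows levels of different genes to be compared, Eif5a stood highest with a mean of 2373 over the 7 libraries, followed by Eef1a1 with 1373. At the low end of the tested genes were Eif5a2 with 0.954 and the kinase Eif2ak3 with 1.13 CPM per kilobase.

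The eIF4 factors held the gene with the smallest p of the family. Eif4a2 encodes a DEAD-box RNA helicase of the cap-binding complex, a close relative of Eif4a1. It had 535.5, 405 and 609 CPM in old and 324, 320, 281 and 256.5 CPM in young HSCs. Values are listed in the order of the library numbers throughout. The lowest old library was above the highest young one. The log2 fold change was 0.81 ± 0.21 (SE), adjusted p = 0.191, with a 95% interval of 0.34 to 1.28, and DESeq2 gave 0.79 with an adjusted p of 0.0135. The adjusted p ran from 0.0135 to 0.800 over the alternative settings, all with a positive fold change. Of the 50-base stretches of its transcripts, 9.23% also occur in transcripts of other genes, and the part of this in its value was not tested.

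Eif4g1 encodes the scaffold that joins the cap-binding protein, the helicase and eIF3. It had 19.5, 31.5 and 17.02 CPM in old and 86.7, 49.6, 61.7 and 32.2 CPM in young HSCs. All 3 old libraries were below all 4 young ones, and young 1 was the highest. The log2 fold change was -1.34 ± 0.53 (SE), adjusted p = 0.45. Eif4h encodes a cofactor that stimulates the helicase. It had 372, 499 and 601 CPM in old and 823, 509.8, 846 and 728.5 CPM in young HSCs, with old 3 above young 2, and a log2 fold change of -0.57 ± 0.25 (SE), adjusted p = 0.548.

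**Figure D2:**
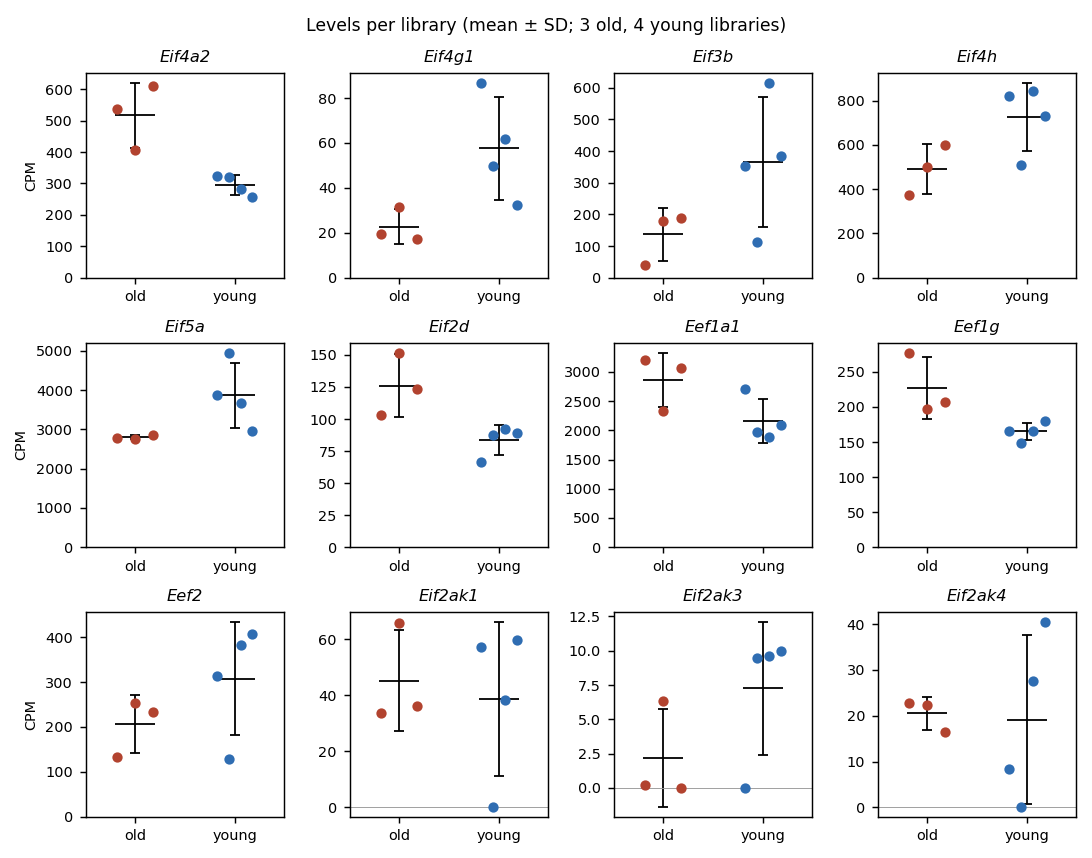
CPM by library for 12 translation factors, old libraries left of young ones in each panel, each point 1 library in the order of its number, with the mean as a horizontal bar and the SD as a vertical line. The groups are apart for Eif4a2, Eif4g1, Eif5a, Eif2d and Eef1g, and overlap in the other panels.

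Eif4e3 encodes a relative of the cap-binding protein eIF4E. It had 75.8, 101 and 118 CPM in old and 23.9, 57.4, 70.3 and 61.2 CPM in young HSCs, the lowest old library above the highest young one. The log2 fold change was 0.89 ± 0.42 (SE), adjusted p = 0.586. Eif4g2 encodes a scaffold related to Eif4g1 that lacks the part binding eIF4E, and it drew the most reads of the role group before any correction for length. Its values were 733, 807 and 563.5 CPM in old and 753, 507, 923 and 769.5 CPM in young HSCs, with overlapping groups and a log2 fold change of -0.07 ± 0.24 (SE), adjusted p = 0.9855. Of the 11 tested eIF4 cap-binding and helicase genes, 4 had a positive and 7 a negative fold change, with a median of -0.14.

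The 125 bases around the annotated transcription start are shown for the 4 genes with an unadjusted p under 0.05, 100 before it and 25 after it, from RefSeq on GRCm38.p6. That build is not the mm9 build of the counts, so these positions cannot be set beside the counting. Capitals mark CACGTG, the letters of an E-box that Myc and other basic helix-loop-helix factors are known to bind. The windows are Eif4a2 (chr16:23107368-23107492, plus strand), Eif4g1 (chr16:20672627-20672751, plus strand), Eif3b (chr5:140419205-140419329, plus strand) and Eif4h (chr5:134639385-134639509, minus strand).
Eif4a2: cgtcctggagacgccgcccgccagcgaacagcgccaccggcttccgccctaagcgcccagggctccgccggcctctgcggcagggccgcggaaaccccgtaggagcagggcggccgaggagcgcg
Eif4g1: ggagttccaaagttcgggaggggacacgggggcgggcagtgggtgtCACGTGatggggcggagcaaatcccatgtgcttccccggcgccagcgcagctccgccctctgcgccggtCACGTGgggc
Eif3b: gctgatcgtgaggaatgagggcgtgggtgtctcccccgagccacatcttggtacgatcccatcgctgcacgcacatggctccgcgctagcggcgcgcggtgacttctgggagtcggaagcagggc
Eif4h: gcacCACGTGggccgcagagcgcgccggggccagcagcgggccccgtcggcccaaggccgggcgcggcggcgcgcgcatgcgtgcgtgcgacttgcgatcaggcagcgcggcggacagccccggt
Eif4g1 held CACGTG at 2 places and Eif4h at 1, and the printed windows of Eif4a2 and Eif3b held none.

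Over longer windows of 300 bases, 250 before and 50 after the start, CACGTG was found in 14 of 63 start sites of the family (22.2%), against 10.2% of the 11070 start sites of tested genes and 7.15% of all 32850 in the table. CACGTG reads the same on both strands. The family's start sites with it belong to 12 genes, 6 with a positive and 6 with a negative fold change. CCGGAAG, the letters of a site of Ets factors, was sought on both strands and found in 20 of the 63 (31.7%), against 18.3% of the start sites of tested genes. The start sites belong to 48 of the 62 genes, some with several starts, and the counts are a description of letters.

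The binding proteins of eIF4E had fold changes of both signs. Eif4ebp1 encodes a repressor that holds eIF4E away from the scaffold until mTORC1 phosphorylates it. It had 534, 530.5 and 407 CPM in old and 346, 615, 289.7 and 297 CPM in young HSCs. The groups overlapped and the log2 fold change was 0.34 ± 0.29 (SE), adjusted p = 0.89. Eif4enif1, which carries eIF4E into the nucleus, had 59.6, 118 and 155 CPM in old and 193, 186, 148 and 171.5 CPM in young HSCs, and its log2 fold change was -0.66 ± 0.33 (SE), adjusted p = 0.625. The group of 4 had 2 positive and 2 negative values.

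Among the 12 tested subunits of eIF3, 6 had a positive and 6 a negative fold change, with a median of 0.14. Eif3b encodes a core scaffold subunit. It had 41.4, 179.5 and 189 CPM in old and 352.5, 113.5, 615 and 383 CPM in young HSCs, and old 1 was the lowest of all while young 2 lay below old 2 and old 3. The log2 fold change was -1.42 ± 0.62 (SE), adjusted p = 0.5305, with a 95% interval of -2.82 to -0.03. Eif3i, a WD-repeat subunit that sits with Eif3b and Eif3g, had 532, 299.7 and 326 CPM in old and 214, 358, 233 and 270.4 CPM in young HSCs. Its log2 fold change was 0.52 ± 0.28 (SE), adjusted p = 0.651. Eif3g, an RNA-binding subunit and the highest eIF3 gene, had 462, 469 and 527 CPM in old and 357, 702, 434 and 473 CPM in young HSCs, with a log2 fold change of -0.02 ± 0.25 (SE), adjusted p = 0.995 and overlapping groups. None of these subunits passed the threshold. Levels per kilobase within eIF3 ran from 444 CPM per kilobase for Eif3g to 31.0 for Eif3a, the largest subunit, a ratio of 14.3.

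Eif3j1 and Eif3j2, copies of the loosely bound eIF3j subunit, had no count in any library. Of their 50-base stretches, 39.8% and 91.8% occur in transcripts of other genes in GENCODE, and the part of this in the absent counts was not tested.

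**Figure D3:**
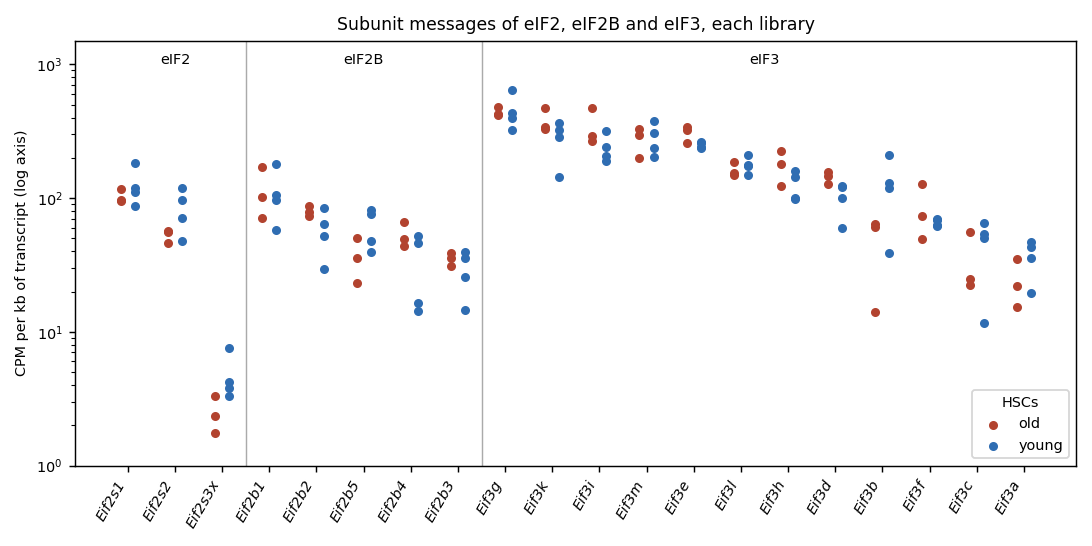
Levels of the subunit genes of eIF2, eIF2B and eIF3 in CPM per kilobase of transcript on a log axis, old libraries left of young ones at each gene, each point 1 library. Eif2s3x lies lowest, and Eif3b has 1 old library far below the others.

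The eIF2 genes leaned to negative values, with 1 of 5 positive and a median of -0.27. The 5 include Eif2a and Eif2d, which are not subunits of eIF2, and Eif2d was the positive one. Eif2s1, the alpha subunit that the kinases phosphorylate, had 321, 399.7 and 329 CPM in old and 375, 620.5, 401.5 and 295.5 CPM in young HSCs. The log2 fold change was -0.27 ± 0.27 (SE), adjusted p = 0.9145. Eif2s2, the beta subunit, had 117, 141 and 143.5 CPM in old and 246, 304, 180.5 and 122 CPM in young HSCs, with young 2 the highest and young 4 among the old values. Its log2 fold change was -0.67 ± 0.32 (SE), adjusted p = 0.598. Without young 2 the log2 fold change was -0.03 for Eif2s1 and -0.45 for Eif2s2. Eif2d encodes a factor that can place tRNA on the ribosome without eIF2 and serves in recycling. It had 103, 152 and 123 CPM in old and 66.6, 87.35, 92.4 and 89.1 CPM in young HSCs, all old libraries above all young ones, and a log2 fold change of 0.59 ± 0.27 (SE), adjusted p = 0.575.

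The gamma subunit, which binds GTP, has a copy on the X and another on the Y chromosome. Eif2s3x had 12.05, 6.44 and 8.57 CPM in old and 13.9, 27.8, 15.4 and 12.01 CPM in young HSCs, and its log2 fold change was -0.94 ± 0.91 (SE), adjusted p = 0.914. Its level of 3.77 CPM per kilobase was the lowest of eIF2, against 115 for Eif2s1. Of its 50-base stretches, 35.4% occur in transcripts of other genes, and the part of this in its low level was not tested. Eif2s3y had no count in any library. The Y-linked Ddx3y and Kdm5d were also at 0 in all of them, and Uty had 1 count, in young 2. Xist was at 35.2 to 105 CPM in old and 73.1 to 173.5 CPM in young HSCs. The start sites of the pair are printed to compare them, with capitals on the run of pyrimidines (C and T) next to the start and on CACGTG, and beside them Eif3f, which carries both a run and CACGTG. Such a run at the start is known from terminal oligopyrimidine messages, whose translation follows mTORC1. The windows are Eif2s3x (chrX:94212627-94212751, minus strand), Eif2s3y (chrY:1010495-1010619, plus strand) and Eif3f (chr7:108934315-108934439, plus strand).
Eif2s3x: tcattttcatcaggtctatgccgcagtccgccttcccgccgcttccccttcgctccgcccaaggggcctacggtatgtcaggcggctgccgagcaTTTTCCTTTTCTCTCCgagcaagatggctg
Eif2s3y: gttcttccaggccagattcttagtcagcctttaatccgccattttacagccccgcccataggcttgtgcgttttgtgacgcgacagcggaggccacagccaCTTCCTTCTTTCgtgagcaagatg
Eif3f: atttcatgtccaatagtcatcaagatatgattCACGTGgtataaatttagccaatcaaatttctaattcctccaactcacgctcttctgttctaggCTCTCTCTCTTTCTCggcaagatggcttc
A run of at least 8 pyrimidines that began within 5 bases of the start was found at 7 of 63 start sites of the family (11.1%), against 4.91% of those of tested genes, in Eef1a1, Eif2ak4, Eif2b2, Eif2s3x, Eif2s3y, Eif3f and Eif3l.

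Of the 5 subunits of eIF2B, 4 had a positive value, with a median of 0.29. Eif2b4, a regulatory subunit, had 100.1, 88.8 and 133 CPM in old and 33.2, 28.8, 92.8 and 105 CPM in young HSCs. Its log2 fold change was 0.73 ± 0.50 (SE), adjusted p = 0.807. Eif2b5, the catalytic subunit, had 91.05, 59.5 and 128 CPM in old and 193, 122, 206 and 101.5 CPM in young HSCs. Its log2 fold change of -0.74 ± 0.36 (SE), adjusted p = 0.615, was the only negative value of the complex. Eif2b1, the regulatory alpha subunit, had 142, 205 and 341 CPM in old and 116, 365, 211 and 195 CPM in young HSCs, with a log2 fold change of 0.05 ± 0.41 (SE), adjusted p = 0.992 that turned negative under some alternatives. The groups overlapped for all 5 subunits.

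Of the 5 tested genes of the eIF1 group, 3 had a positive value, with a median of 0.24. Eif1, which guards the choice of start codon, had 1085, 866 and 919 CPM in old and 733.5, 909, 566 and 629 CPM in young HSCs. Its log2 fold change was 0.43 ± 0.22 (SE), adjusted p = 0.626. Eif1a, a copy of the scanning factor eIF1A, had 553, 421 and 493 CPM in old and 307, 474, 300.2 and 349 CPM in young HSCs, and its log2 fold change was 0.45 ± 0.23 (SE), adjusted p = 0.625. Its partner copy Eif1ax made up 15.4%, 16% and 15.1% of the summed CPM per kilobase of both in old, and 24.5%, 23.1%, 17.3% and 22.5% in young HSCs. The old shares were all below the young ones. Eif4g2 made up 96.4%, 94.7% and 95.9% of Eif4g1 and Eif4g2 in old, and 86.0%, 87.8%, 91.3% and 94.4% in young HSCs, likewise without overlap. Eif4a2 made up 27.8%, 27.3% and 30.7% of Eif4a1 and Eif4a2 in old, and 33.2%, 20.1%, 23.5% and 20.3% in young HSCs, where young 1 lay above all old libraries. These pairs were chosen after their values were seen and are given without a test. Of the stretches of Eif4a1, 65.3% occur in other genes, so that its part of the pair is uncertain.

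**Figure D4:**
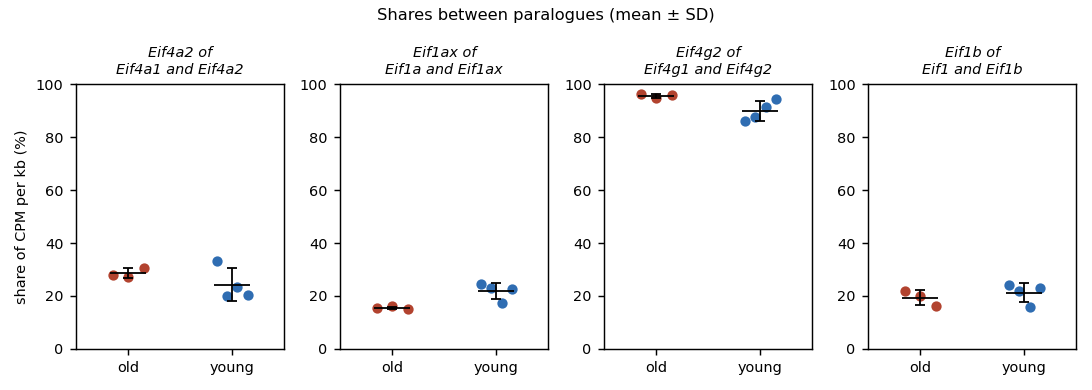
Share of the gene named first in the summed CPM per kilobase of each pair of related factors, in percent, old libraries left of young ones, each point 1 library, with the mean as a bar and the SD as a vertical line. Eif1ax lies at 15.1 to 16% in old and 17.3 to 24.5% in young HSCs.

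Eif5a and Eif6 were lower in every old library than in any young one, without passing the threshold. Eif5a encodes the hypusine-bearing factor that helps the ribosome past difficult peptide bonds. It had 2778, 2760.0 and 2864 CPM in old and 3877, 4959, 3664 and 2970.0 CPM in young HSCs. The log2 fold change was -0.47 ± 0.21 (SE), adjusted p = 0.571, with a 95% interval of -0.95 to 0.01. Only 3.77% of its 50-base stretches occur in other genes. Eif6, which keeps the large subunit from joining too early, had 265, 267 and 267 CPM in old and 295, 275, 352 and 335 CPM in young HSCs. The old libraries lay within 2 CPM of each other, and the log2 fold change was -0.24 ± 0.19 (SE), adjusted p = 0.865. The 5 genes of this role group summed to 3659 to 3932 CPM in old and 3967 to 5926 CPM in young HSCs, most of it Eif5a. Of the 5, 3 had a positive and 2 a negative fold change, with a median of 0.16. The positive ones were Eif5 at 0.16, Eif5b at 0.19 and Eif5a2 at 2.05, the last with no count in 3 libraries.

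Of the 5 tested eEF1 genes, 4 had a positive value, with a median of 0.35. Eef1a1, which delivers aminoacyl-tRNA, had 3196, 2329 and 3063 CPM in old and 2710.0, 1975, 1881 and 2090.0 CPM in young HSCs, with young 1 above old 2. Its log2 fold change was 0.40 ± 0.21 (SE), adjusted p = 0.6475. Of its 50-base stretches, 52.4% occur in transcripts of 20 other genes, so its value is uncertain. Eef1g, a subunit of the exchange factor of eEF1A, had 278, 197 and 207 CPM in old and 166, 149, 166 and 179.8 CPM in young HSCs. All old libraries were above all young ones, with a log2 fold change of 0.46 ± 0.22 (SE), adjusted p = 0.592, and 64.3% of its stretches occur in other genes.

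The other tested eEF1 genes had fold changes of both signs. Eef1b2, a catalytic subunit, had 441, 297 and 360.4 CPM in old and 391.5, 289.9, 203 and 268 CPM in young HSCs, and its log2 fold change was 0.35 ± 0.26 (SE), adjusted p = 0.8445. Eef1d, the second catalytic subunit, had 263, 146 and 177 CPM in old and 223, 202, 158.5 and 190 CPM in young HSCs, and its log2 fold change was 0.01 ± 0.26 (SE), adjusted p = 0.996. Eef1e1, a member of the tRNA synthetase complex, had 131, 73.2 and 104 CPM in old and 151, 119, 89.3 and 93.8 CPM in young HSCs, and its log2 fold change was -0.14 ± 0.31 (SE), adjusted p = 0.977. Summed, the eEF1 genes stood at 3042 to 4309 CPM in old and 2497 to 3642 CPM in young HSCs, which overlap.

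Eef2 and its kinase were both negative. Eef2, the translocase, had 134, 254 and 234 CPM in old and 314, 128.5, 383 and 406 CPM in young HSCs. Young 2 was the lowest of all 7 libraries, and the log2 fold change was -0.57 ± 0.40 (SE), adjusted p = 0.815. Eef2k, which phosphorylates and slows eEF2, had 34.03, 11.6 and 2.997 CPM in old and 27.99, 21.9, 36.1 and 26.6 CPM in young HSCs, and its log2 fold change was -0.80 ± 0.89 (SE), adjusted p = 0.9325. Without old 1 that value was -1.95.

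The 3 eIF2 kinases had the lowest median level of the role groups, 3.72 CPM per kilobase, and summed to 52.63 to 94.5 CPM in old and 9.452 to 110.1 CPM in young HSCs. Eif2ak1, the haem-regulated kinase, had 33.6, 65.8 and 36.2 CPM in old and 56.99, 0, 38.4 and 59.55 CPM in young HSCs. Eif2ak3, the kinase of the endoplasmic reticulum known as PERK, had 0.189, 6.315 and 0 CPM in old and 0, 9.45, 9.64 and 9.99 CPM in young HSCs. Eif2ak4, the amino acid sensor known as GCN2, had 22.7, 22.35 and 16.4 CPM in old and 8.37, 0, 27.7 and 40.5 CPM in young HSCs. Each gene had a library at 0, young 2 for Eif2ak1 and Eif2ak4, and old 3 and young 1 for Eif2ak3. The log2 fold changes were 0.22, -1.74 and 0.10, with adjusted p of 0.991, 0.952 and 0.995 in that order. Their 95% intervals reached -2.82 to 3.27 for Eif2ak1, -7.13 to 3.65 for Eif2ak3 and -3.31 to 3.50 for Eif2ak4, so large changes either way lay within them. Without old 2 the value of Eif2ak3 was -6.20, and limma-voom gave 2.24 for Eif2ak1 and 2.17 for Eif2ak4. Outside young 2, Eif2ak1 had 890 to 2127 counts in a library, or 33.6 to 65.8 CPM. With young 2 left out, its log2 fold change was -0.19, so its estimate depended on the library at 0.

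Genes of the pathways around translation were read in the same fit, and none passed the threshold in any of the 9 lists. The integrated stress response list, whose transcription factor Atf4 is translated when eIF2 is phosphorylated, had 7 of 10 tested genes positive with a median of 0.40. Its genes summed to 987.5 to 1138 CPM in old and 632.1 to 934.2 CPM in young HSCs. Asns, the asparagine synthetase, had 174, 83.4 and 143 CPM in old and 57.4, 107.5, 87.3 and 72.7 CPM in young HSCs, and its log2 fold change was 0.72 ± 0.34 (SE), adjusted p = 0.598. Ddit3, the stress factor CHOP, had 52.6, 23.5 and 75.3 CPM in old and 17.9, 35.4, 19.7 and 6.79 CPM in young HSCs, and its log2 fold change was 1.34 ± 0.70 (SE), adjusted p = 0.648. The list of 9 terminal oligopyrimidine genes within the family had 7 positive values with a median of 0.34. Among these listed genes, the search of start sites above found a run of pyrimidines in Eef1a1 and Eif3f alone. The genes with such a run, 6 of them tested, had 4 positive and 2 negative values.

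Other lists leaned to negative values. Of 9 tested helpers of initiation outside the eIF names, 8 were negative, with a median of -0.82. Pdcd4, an inhibitor of the eIF4A helicases, had 103.8, 47.7 and 72.8 CPM in old and 238, 104.1, 174 and 131 CPM in young HSCs. Its log2 fold change was -1.11 ± 0.38 (SE), adjusted p = 0.343. Mcts1, a partner in recycling and reinitiation and the only positive gene of that list, had 130, 87.4 and 148 CPM in old and 36.7, 91.05, 49.96 and 62.5 CPM in young HSCs, and its log2 fold change was 1.02 ± 0.38 (SE), adjusted p = 0.387. In the mTORC1 list 9 of 11 were negative with a median of -0.32. Tsc2, a brake on mTORC1, had 4.645, 2.29 and 10.2 CPM in old and 26.4, 22.3, 60.2 and 16.7 CPM in young HSCs, and its log2 fold change was -2.46 ± 0.94 (SE), adjusted p = 0.417.

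Release and recycling factors gave 5 negative values of 6, with a median of -0.29. Abce1, which splits ribosomes after termination, had 200.5, 192 and 145 CPM in old and 304, 212.5, 354 and 214 CPM in young HSCs, all old libraries below all young ones, with a log2 fold change of -0.60 ± 0.26 (SE), adjusted p = 0.533. Gspt1, the GTPase of release, had a log2 fold change of -0.94 ± 0.46 (SE), adjusted p = 0.61. Of 5 poly(A)-binding genes 4 were negative with a median of -0.18. Paip1 stood at -0.82 (adjusted p = 0.835) and Pabpc1 at -0.18 (adjusted p = 0.951). The hypusine and diphthamide enzymes, which modify eIF5A and eEF2, gave 6 positive of 9 with a median of 0.17, with Dph5 at 0.24 (adjusted p = 0.946). Dph2 was at 0 in old 1, old 3 and young 2, and its log2 fold change of -4.32 ± 2.66 (SE), adjusted p = 0.751, is poorly determined. Mitochondrial factors gave 6 positive of 9 with a median of 0.16. Guf1, the mitochondrial elongation factor 4, had 224, 185 and 171 CPM in old and 83.45, 138.5, 142 and 108 CPM in young HSCs, all old above all young, with a log2 fold change of 0.71 ± 0.26 (SE), adjusted p = 0.382. The selenocysteine list had 1 positive and 2 negative values with a median of -1.11. Eefsec, the elongation factor for selenocysteine, stood at -1.12 (adjusted p = 0.552) and Sephs2, which makes its selenium donor, at 0.53 (adjusted p = 0.87). Every old library was below every young one for Eefsec, as for Pdcd4, Tsc2 and Abce1. Over all tested genes, the groups did not overlap, in either direction, in 12.7%.

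Transcript length moved with the fold changes across the table. Among 4339 tested genes with at least 50 CPM and a known length, the median log2 fold change was 0.17 in the shortest of 5 length bins (383 to 1456 bases) and -0.18 in the longest. For translation factors in the same bins, from shortest to longest, the medians were 0.34, 0.35, -0.14, -0.27 and 0.03, with 8, 13, 9, 11 and 6 genes. The shortest bin of all genes deviated by 0.33 log2 units in old 1, by 0.43 in young 2 and by -0.58 in young 3. The part of length, and of the cycling-cell, progenitor and other markers given above, in the values of single factors was not tested. In bulk RNA, fewer cells of a type and less RNA per cell cannot be told apart.

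**Figure D5:**
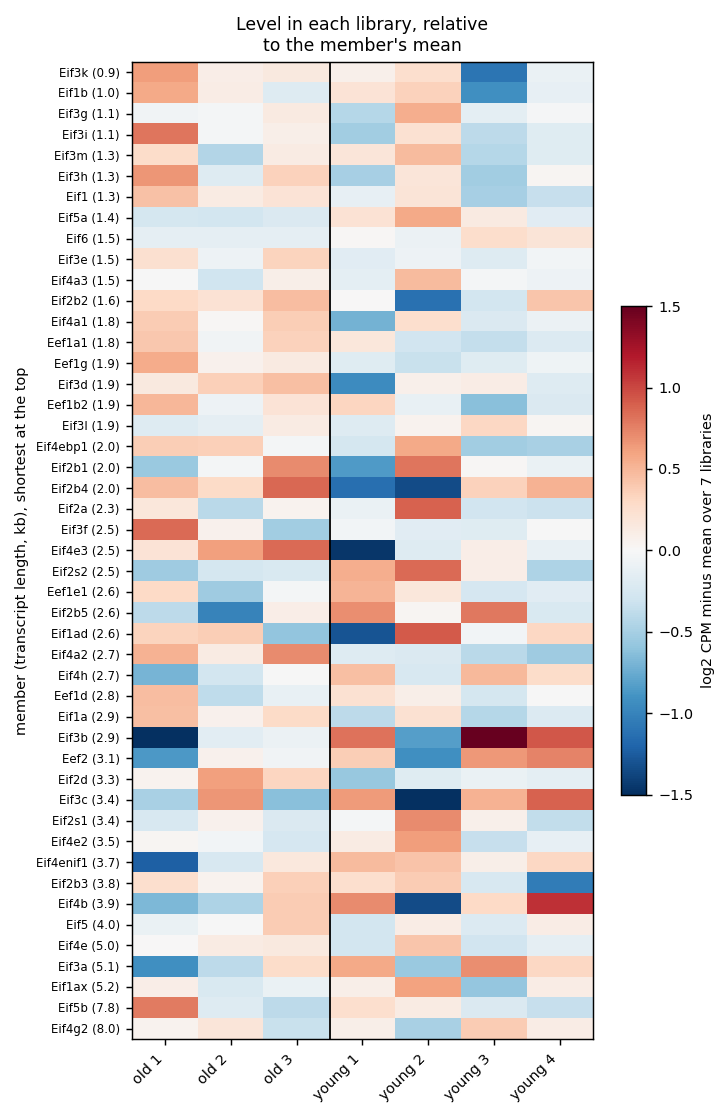
Log2 CPM minus the mean over the 7 libraries for the 47 translation factors with at least 50 CPM and no library at 0, old libraries left of young ones, with the shortest transcript at the top. Red is above and blue below the gene's mean. At the top, the genes of shortest transcript are mostly red in old 1 and mostly blue in young 3.

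The largest shift from leaving out 1 library came with young 2, in the count of factors that reached an unadjusted p under 0.05. Without that library there were 12 of 57, still with none past the adjusted threshold, and the median log2 fold change of the family was 0.19. The median of all 11336 genes tested in that fit was -0.005. Their share at an unadjusted p under 0.05 was not computed, so the 12 have no background to be read against.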

How the data were processed

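Per the labels' protocols, cDNA was made from polyadenylated RNA with Smart-seq+ and libraries with Nextera XT. Trimmomatic, FastQC, featureCounts, STAR and the build mm9 are listed in the submitters' processing notes. For versions, settings, annotation and strand, the sources used here give nothing. The deposited values are raw read counts per gene symbol, which the authors did not scale as far as the values show. From these, R 4.3.3 was used with edgeR 4.0.16 (filterByExpr with a minimum count of 10 and minimum total of 15, TMM, quasi-likelihood F test, 2-sided, group only, Benjamini-Hochberg over 11506 genes). SE is the absolute log2 fold change over the square root of F. DESeq2 1.42.0, limma 3.58.1 (voom), other scalings and filters and leaving out each library were alternatives. The procedure was also run on simulated data. The outcome is not given here, so its power at the spread of these libraries is not stated.

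Transcript lengths (longest protein-coding transcript) and shared 50-base stretches came from GENCODE vM21, start sites from RefSeq, both on GRCm38 and not mm9. Shares of such stretches are given above for some genes only. Among other named genes they were 21.4% for Eif1, 21.9% for Eif2s2, 23.6% for Eif4a3 and 12.3% for Eif4e3. The part of this in their values was not tested. The translation factors, lists and tests were chosen with earlier results of these data known. Per-library values are given for all tested elongation factors and kinases, Eif2s3x and Eif2s3y, the 2 smallest p and the highest level of each role group, the 10 smallest p of the family, and up to 2 genes of each pathway list. Other genes named were chosen after their values were seen. Of the symbols matched, 1 is not reported here.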

Additional observations from a re-analysis of the deposited data

Results flagged for a closer look

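In 4 of 57 genes tested for it, 1 young library lay apart from the other 3 by Dixon's criterion, which chance meets in about 1 of 20 groups. The count of 4 is near that rate, and the share over all tested genes was not computed. The values are given as a description. Young 2 had 238.4 CPM of Eif2a, an alternative initiator tRNA carrier, while the other young ones had 103 to 120.2 CPM. Young 2 also had 499.9 CPM of Eif4a3, the helicase of the exon junction complex, against 324 to 353 CPM. Young 3 had 7.694 CPM of Eif5a2, the less used copy of Eif5a, against 0 to 0.453 CPM. Young 1 had 0 CPM of Eif2ak3, against 9.45 to 9.99 CPM.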

How the results depend on the processing

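No translation factor passed in any of the 15 alternatives except Eif4a2 with DESeq2, which called 1. The count over all genes, 29, was 16 with library size alone, 130 among genes of at least 50 CPM, 431 with DESeq2, 50 with limma-voom, and 2 to 18 when 1 library was left out. Of 31 named factors, 24 kept 1 direction throughout. The others turned sign. Eif2b1 was -0.024 and Eif2ak4 -0.038 with library size alone. Eif3g was 0.031 with voom. Eef1d was -0.01 with DESeq2 size factors, -0.085 with library size alone, -0.053 at 50 CPM, -0.01 with DESeq2 and -0.026 with voom. Leaving out 1 library gave -0.35 to 0.40 for Eif2b1, -0.14 to 0.21 for Eif3g, -0.22 to 0.061 for Eif4g2, -0.26 to 0.17 for Eef1d, -0.35 to 0.04 for Eef1e1, -0.19 to 0.51 for Eif2ak1 and -0.32 to 0.77 for Eif2ak4. With voom Eif2ak1 was 2.24, Eif2ak4 2.17 and Eif2ak3 -2.87. Eif2ak3 was -6.20 without old 2, and Eef2k -1.95 without old 1. Leaving out 1 library, medians ranged from -0.10 to 0.19 for the family, 0.071 to 0.41 for eIF2B, -0.021 to 0.26 for eIF3 and -0.24 to 0.22 for eIF5 and eIF6, whose median was -0.11 at 50 CPM. They ranged from 0.008 to 0.40 for eIF1, -0.41 to -0.03 for eIF2, -0.20 to 0.02 for eIF4 and -0.225 to 0.02 for the eIF4E-binding genes. The kinases' ranged from -0.32 to 0.51. Voom gave 0.42 for eIF2B and 2.17 for the kinases. The cause was not tested.

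The replicate numbers are shared by the groups but are not stated to pair the libraries. Same-numbered libraries correlated at 0.0254, -0.0745 and -0.0136. No old library correlated best with the young library of its own number, while young 1 correlated best with old 1. The replicate block called 0 genes of all tested and 0 factors, with Eif3g at 0.026, Eef1d at -0.025, Eif2ak1 at 1.17, Eif2ak4 at 2.11, and medians of 0.088 for eIF2B and 0.01 for eIF5 and eIF6. The median of all tested genes was -0.12 with library size alone, 0.08 with voom and 0.10 with the block, against -0.03.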
